A study of Mus musculus with 24 samples.

Results

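Chromatin accessibility at 9 genes of the senescence-associated secretory programme was compared between young and aged mouse small intestinal epithelium. The genes were Plau, Plaur, Serpine2, Igfbp2, Igfbp3, Igfbp4, Igfbp5, Igfbp7 and Gdf15. Their regions were the consensus ATAC-seq peaks that the deposited annotation names for one of the 9 genes and places at most 50000 bp from its transcription start site (TSS), which gave 44 of the 150646 peaks. No peak named for these genes lay beyond that distance. Naming is by the nearest start site and does not show that a peak acts on the gene.

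The proteins form 3 groups. Urokinase (Plau) is a secreted protease that turns plasminogen into plasmin at the cell surface, where it is held by its receptor (Plaur), and Serpine2, also called protease nexin-1, is a secreted inhibitor of urokinase, plasmin and thrombin. Insulin-like growth factor binding proteins (Igfbp2 to Igfbp5, and the more distant Igfbp7) bind growth factor or matrix outside the cell and set how much free ligand reaches its receptors. Gdf15 is a secreted cytokine of the TGF-beta superfamily that many cells make under stress. Senescent cells in culture often release such proteins, and ATAC-seq, which uses the transposase Tn5 to tag accessible DNA, reports on the chromatin around their genes and not on RNA or protein.

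Libraries came from freshly isolated epithelial cells of C57BL/6JRj mice, with no genotype or treatment given. Cells released with EDTA and trypsin were sorted as EpCam+ and CD45-, a gate for epithelium that leaves out most leukocytes, and libraries were amplified for 17 PCR cycles. Both groups share all of this, and age, young against aged, is the only difference between them that the labels give. The labels of the libraries give no months; the design text of the series gives 2-3 months for young and 20-22 months for aged mice in sentences on other assays. The 24 sample records are 6 libraries on 4 lanes each (young 1, 2 and 4, aged 1, 2 and 4), so n = 3 per age. The labels do not say outright that each library is a separate mouse. The p-values therefore weigh the age difference against variation between libraries, which need not be that between mice. That variation is estimated with information from all tested features.

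Total counts in peaks ran from 6149680 in young 4 to 23935291 in aged 2, a 3.89-fold span, and the 44 peaks took 0.0155% to 0.0175% of them. Of 12 epithelial marker genes, 11 had a peak within 1000 bp of the start (all but Vil1), with a summed promoter level of 1340 to 1365 CPM (normalised read counts, scaled to library size) in aged and 1354 to 1404 in young libraries. Few markers of other cell types had such a peak: 2 of 10 for fibroblasts, 2 of 10 for endothelium, 1 of 14 for leukocytes (Ptprc, Itgam, Csf1r and Spi1 had none) and 1 of 5 for enteric neurons and glia, against 4 of 5 for smooth muscle. Their summed promoter levels overlapped between the ages in all 5 lists, and no marker gene was called. Over 50 kb the smooth muscle sum was 105 to 108 CPM in aged and 109 to 113 in young libraries, while the fibroblast, endothelial, leukocyte and neural sums overlapped. Of 8 leukocyte markers with a peak there, 7 had a log2 fold change (aged over young) above 0 and 1 below. Cd8a was at 1.73 (SE 0.46, edgeR adjusted p = 0.0567), with means of 1.48 CPM in aged and 0.533 in young libraries that did not overlap. The part of smooth muscle cells or leukocytes in the results was not tested. In sorted bulk cells, a change in how many cells have a region open and a change per cell cannot be told apart.

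The promoter sequences shown are the 250 bases before the RefSeq start of 3 genes, printed 5′ to 3′ from RefSeq GRCm38.p6. Their part in the accessibility differences was not tested. Plaur and Igfbp7 are shown because theirs were the promoters whose accessibility differed between the ages. Serpine2 is shown because 2 of its peaks lie beside its RefSeq start, far from the start used by the deposited annotation. The same holds for Igfbp2, which is not shown. Capitals mark every match to GGGCGG (GC box, the Sp1 type of element) or TGANTCA (AP-1 element), searched on both strands.
Plaur promoter: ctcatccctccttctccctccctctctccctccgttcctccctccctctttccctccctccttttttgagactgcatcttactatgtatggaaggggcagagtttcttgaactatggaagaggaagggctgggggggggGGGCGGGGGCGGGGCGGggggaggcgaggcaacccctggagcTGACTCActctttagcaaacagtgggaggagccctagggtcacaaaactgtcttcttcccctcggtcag
Igfbp7 promoter: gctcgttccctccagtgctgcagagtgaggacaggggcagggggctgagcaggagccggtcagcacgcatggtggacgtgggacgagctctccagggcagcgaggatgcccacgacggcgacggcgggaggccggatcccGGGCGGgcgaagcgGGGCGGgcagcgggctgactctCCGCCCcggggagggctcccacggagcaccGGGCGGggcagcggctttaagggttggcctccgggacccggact
Serpine2 promoter: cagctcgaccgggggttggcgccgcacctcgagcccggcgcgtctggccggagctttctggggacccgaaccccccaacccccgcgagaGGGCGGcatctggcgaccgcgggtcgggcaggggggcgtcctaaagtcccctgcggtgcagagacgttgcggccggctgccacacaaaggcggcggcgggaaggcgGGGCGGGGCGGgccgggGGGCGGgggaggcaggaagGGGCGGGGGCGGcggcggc
The Plaur stretch is chr7:24462233-24462482 on the + strand, the Igfbp7 stretch chr5:77408046-77408295 on the - strand and the Serpine2 stretch chr1:79858666-79858915 on the - strand. Plaur holds 6 CpG and 59.6% GC, with 3 GC boxes whose first bases lie at -111, -105 and -100 (the last 2 share a base) and an AP-1 match, TGACTCA, at -69. Of 32851 mouse promoters of the same length, 6.75% hold the AP-1 letters and 32.7% a GC box, and the median is 6 CpG and 52.4% GC. Igfbp7 holds 26 CpG and 74% GC, more CpG than 90.4% of promoters, with 4 GC boxes. Serpine2 holds 34 CpG, more than 96.5% of promoters, and 6 GC boxes. Igfbp2, not printed here, also has an AP-1 match, TGAGTCA, at -39 from a second RefSeq start, chr1:72825387. Before its first RefSeq start it has 3 GC boxes. Another 5 elements were searched on both strands and have no match in these 3 stretches. They are the CCAAT box by that name's letters (held by 33.8% of promoters), the TATA box as TATAAA (12.4%), the E-box as CACGTG (6.02%), the cyclic AMP element as TGACGTCA (1.55%) and the ATF4-CHOP element as TGATGCAA (0.791%). A match describes letters and is not a measured binding site.

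Across the 44 peaks, 16 were annotated as intergenic, 12 as intron, 9 as promoter-TSS, 6 as exon and 1 as transcription termination site (TTS). Their median width was 197 bp (71 to 749 bp) against 223 bp for all peaks. After the filter on low counts 39 remained for testing. The other 5, 1 each of Plaur, Serpine2, Igfbp2, Igfbp3 and Gdf15, averaged 0.347 to 0.559 CPM. Tested peaks of these genes had a median of 9.61 CPM per kb of peak, against 10.9 for all tested peaks.

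Accessibility differed with age at a pair of these peaks (edgeR quasi-likelihood test, p adjusted over all peaks by Benjamini-Hochberg): a peak upstream of Gdf15 was higher in aged libraries and the peak at the Igfbp7 start was lower. That is 2 of 39 tested peaks (5.13%), where 1.6% of all 129588 tested peaks were called, 1.07% higher and 0.528% lower. At an unadjusted p below 0.05 there were 8 of 39 (20.5%) against 8.82% of all peaks, and 5 of the 8 were the tested peaks of Plaur. In 5 of 39 (12.8%) the 3 libraries of one age all lay above the 3 of the other, against 13.9% of all peaks. Of the 39, 22 were above 0 and 17 below, with a median log2 fold change (aged over young) of 0.10 against -0.0038 for all tested peaks.

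**Figure D1:**
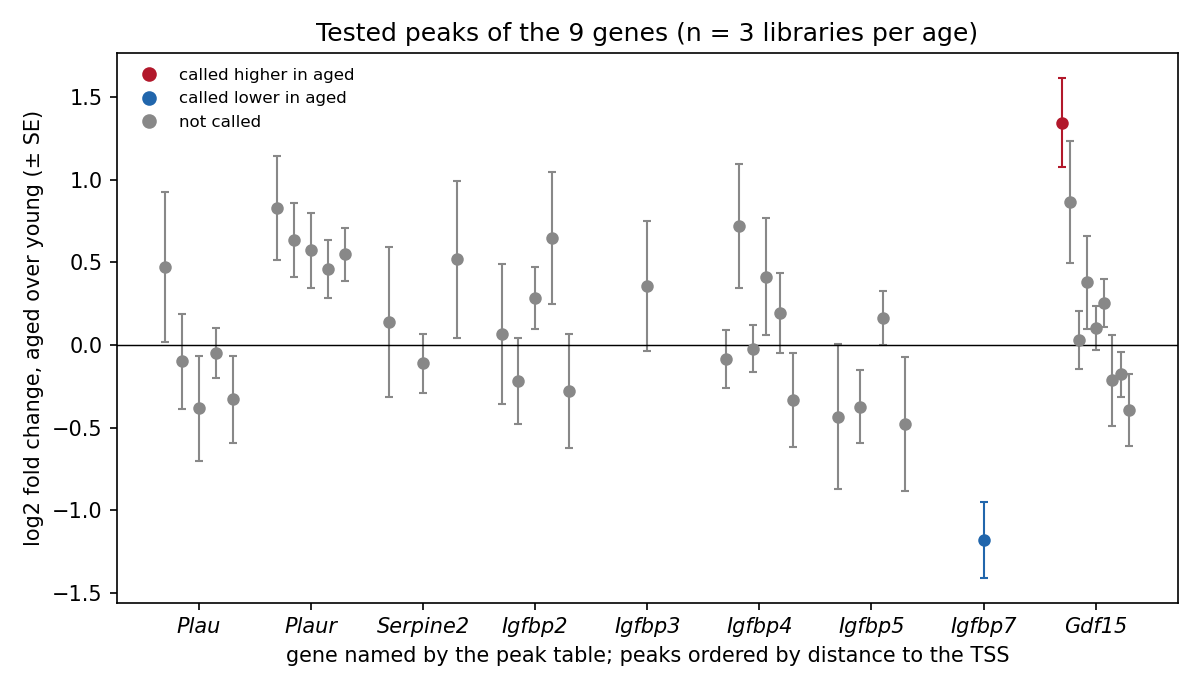
Log2 fold change in accessibility (aged over young, with its standard error) of each of the 39 tested peaks, grouped by the gene that the deposited annotation names and ordered by distance to the TSS. The 5 Plaur peaks all sit above 0 but none is called singly, while 1 Gdf15 peak at 1.34 is called higher and the only Igfbp7 peak at -1.18 is called lower.

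Promoter values were obtained by summing the counts of peaks centred within 1000 bp of the annotated start, and are in CPM of all promoter counts, a scale of their own. Of the 9 genes, 5 could be tested there: Plaur was called higher and Igfbp7 lower, while Plau, Igfbp4 and Gdf15 were not called. Of all 13880 tested promoters 1.74% were called, 0.771% higher and 0.973% lower. Over all peaks within 50 kb, again with a CPM scale of their own, all 9 genes could be tested and the same 2 were called, where 1.84% of 27234 genes were (1.06% higher and 0.775% lower). The median of the 9 genes over 50 kb was 0.03 on the log2 scale, against -0.0025 for all genes.

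Plaur, the urokinase receptor, was more accessible in aged epithelium by 1.45-fold at its promoter and 1.48-fold over 50 kb. Its promoter level was 48.7, 44.4 and 67.6 CPM in aged libraries 1, 2 and 4 and 37.1, 37.1 and 35.5 CPM in young 1, 2 and 4. Every aged library was above every young one, where the ages did not overlap at 14% of all tested promoters. The young libraries lay close together, and aged 4 stood highest. The promoter log2 fold change was 0.53 (SE 0.13, edgeR adjusted p = 0.0341), a mean of 53.6 ± 12.4 CPM in aged against 36.6 ± 0.953 in young (SD, n = 3 each). Counts behind these values were 70 in young 4, the shallowest library, and 249 to 386 in the other 5. Over 50 kb the levels were 27.2, 29.9 and 41.6 CPM in aged 1, 2 and 4 and 22.5, 21.6 and 22.3 CPM in young 1, 2 and 4, again without overlap, as in 13.7% of all genes. The log2 fold change was 0.57 (SE 0.13, edgeR adjusted p = 0.0179).

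All Plaur peaks that could be tested lay on the same side of 0. The 5 tested peaks, at -11689, -2915, -2524, -806 and 96 bp from the start, had log2 fold changes of 0.83, 0.63, 0.57, 0.46 and 0.55, with SEs of 0.16 to 0.32. None was called on its own. The start peak, chr7:24462404-24462788, came closest: it read 9.49, 7.98 and 10.6 CPM in aged 1, 2 and 4 and 6.87, 6.29 and 5.57 CPM in young 1, 2 and 4 (edgeR adjusted p = 0.0869). With the replicate number as a block it was called, at 0.52 (SE 0.14, edgeR adjusted p = 0.0188). This peak covers the last 79 bases of the printed Plaur promoter, with the AP-1 match but none of the 3 GC boxes. The upstream promoter peak, chr7:24461387-24462001, read 7.70, 6.85 and 11.3 CPM in aged and 6.77, 6.04 and 5.57 CPM in young libraries 1, 2 and 4. At neither promoter peak did the ages overlap, as at 13.9% of all tested peaks.

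Aged 4 was the highest library at 5 of the 6 Plaur peaks and aged 2 at the sixth. Without aged 4 the promoter difference was 0.34 (edgeR adjusted p = 0.347) and the 50 kb difference 0.37 (edgeR adjusted p = 0.202). Leaving out young 2 also ended both calls, at 0.55 (edgeR adjusted p = 0.179) and 0.55 (edgeR adjusted p = 0.121). The promoter call was lost as well without young 1 (edgeR adjusted p = 0.0975) or young 4 (0.0546), with a stricter filter on low counts (0.0511) and with a 500 bp window (0.0683), and the 50 kb call without the peaks within 1000 bp of the start (0.0932). Of the 17 other peaks within 50 kb of the Plaur start, named for other genes, 11 were tested, with a median of -0.02, 5 above 0 and none called. They ran from -0.29 (SE 0.45) to 0.59 (SE 0.40). Peaks named for Smg9 (0.59), Irgc1 (0.55, SE 0.23) and Cadm4 (0.54, SE 0.28) lay within the range of the Plaur peaks. The difference between the 2 sets of peaks was not tested.

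Plau, which encodes urokinase itself, gave no call at any level. Its promoter read 24.2, 24.9 and 28.0 CPM in aged 1, 2 and 4 and 25.3, 27.0 and 30.4 CPM in young 1, 2 and 4, with the ages overlapping. The log2 fold change was -0.07 (SE 0.15, edgeR adjusted p = 0.954), and over 50 kb it was -0.09 (SE 0.13). Most of the signal came from the peak at 109 bp, chr14:20836575-20836967, in an intron, with 7.58, 7.48 and 7.72 CPM in aged and 7.96, 7.43 and 8.44 CPM in young libraries. Of the 5 Plau peaks 4 were below 0 and 1 above; the smallest unadjusted p, 0.221, belonged to the distal peak at 36843 bp (-0.33, SE 0.26).

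Serpine2, the secreted serpin, has no peak within 1000 bp of the start that the deposited distances use. That start is 38361 bp from the RefSeq start at chr1:79858665, beside which 2 of its 4 peaks lie, listed at -38512 and -38071 bp. The larger of them, chr1:79858092-79858659, read 4.19, 5.06 and 5.22 CPM in aged 1, 2 and 4 and 5.26, 5.35 and 4.94 CPM in young 1, 2 and 4 (log2 fold change -0.11, SE 0.18). It ends just inside the transcript, beside the printed CpG-rich stretch, while the peak at -38512 bp lies within that stretch and covers 1 of the 6 GC boxes. Summed over peaks near RefSeq starts, a choice made after the data had been seen, Serpine2 read 10.3, 12.3 and 14.4 CPM in aged and 11.7, 13.9 and 13.1 CPM in young libraries. The ages overlapped, at -0.05 (SE 0.19, edgeR adjusted p = 0.968). At this level 6 of the 9 genes were tested and Plaur and Igfbp7 were called, against 1.6% of 14559 promoters. The smallest unadjusted p, 0.284, was that of a weak intronic peak at -4087 bp (0.52, SE 0.48). Over 50 kb the difference was -0.02 (SE 0.18).

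**Figure D2:**
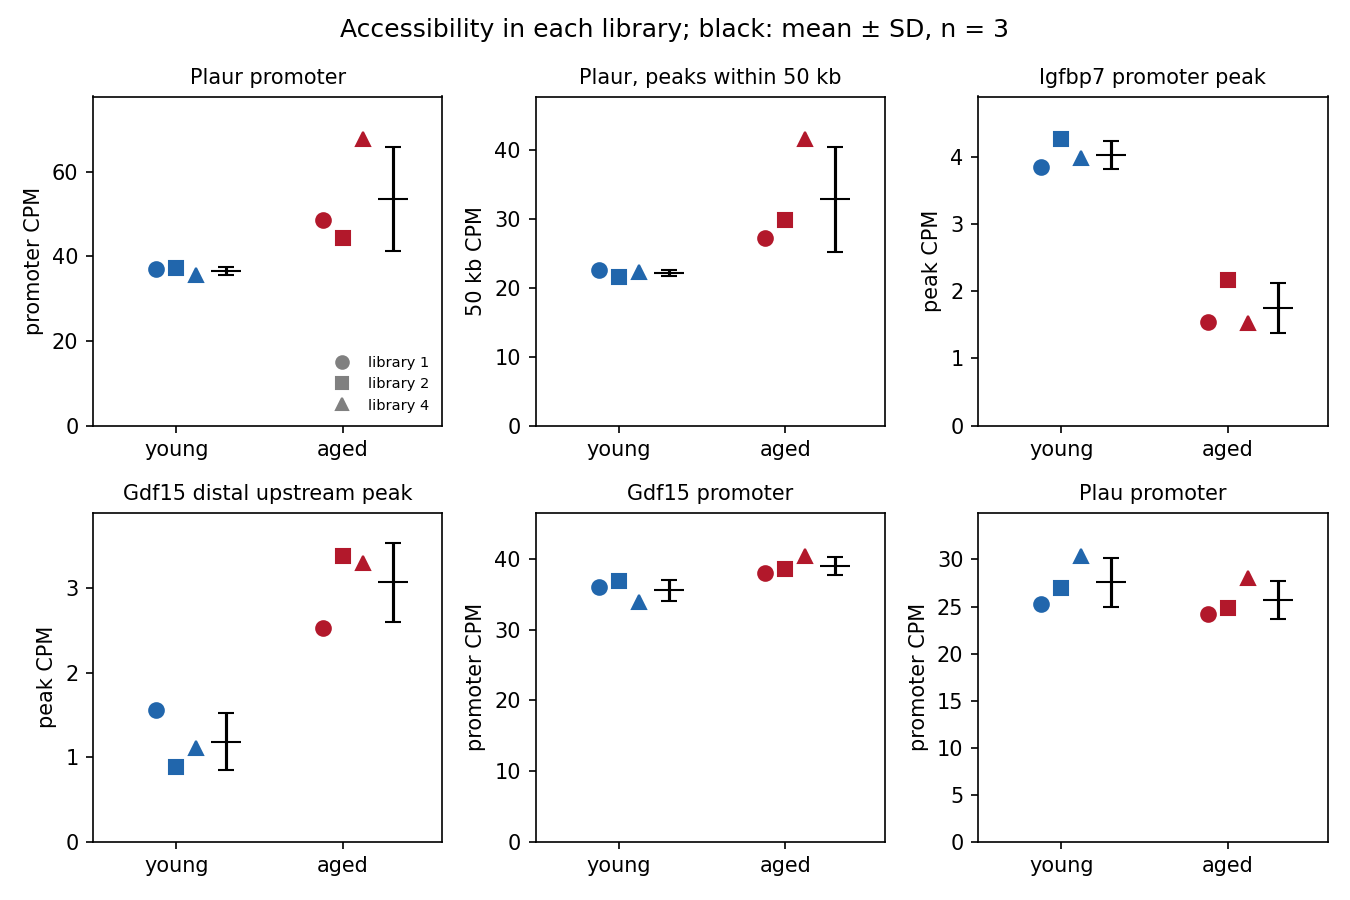
Accessibility in CPM (each panel on its own scale from 0) in every library, with circles, squares and triangles for libraries 1, 2 and 4 and black bars for mean ± SD (n = 3). Aged libraries lie above young ones at the Plaur promoter, where aged 4 reaches 67.6 CPM, at Plaur over 50 kb and at the distal Gdf15 peak. They also lie above them at the Gdf15 promoter, which was not called (edgeR adjusted p = 0.884). They lie below young ones at the Igfbp7 peak and overlap them at the Plau promoter.

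Among the binding proteins, Igfbp7 was the only one of 5 with a call, and it was lower in aged epithelium. It had a single peak, chr5:77407552-77408107, at 211 bp, annotated as exon 1 of 5. The peak read 1.54, 2.17 and 1.53 CPM in aged 1, 2 and 4 and 3.84, 4.26 and 3.98 CPM in young 1, 2 and 4. The highest aged library lay well below the lowest young one. The peak was weak, at 5.20 CPM per kb on average, percentile 15.7 of all tested peaks. The log2 fold change was -1.18 (SE 0.23, edgeR adjusted p = 0.00201), and the raw counts were 25, 52 and 27 in aged against 84, 86 and 25 in young libraries. Summed as a promoter it was -1.16 (SE 0.25, edgeR adjusted p = 0.00661) and over 50 kb -1.17 (SE 0.24, edgeR adjusted p = 0.00794), from the same counts.

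The Igfbp7 peak kept its call when any library was left out. Tested among promoters it lost the call without young 2 (edgeR adjusted p = 0.106), and among 50 kb sums without young 2 (edgeR adjusted p = 0.0959) or aged 4 (edgeR adjusted p = 0.0505). The peak covers the start and the last 62 bases of the printed promoter, with 1 of the 4 GC boxes, the one at -44. Igfbp7 is made in quantity by vascular endothelium, whose promoter markers summed to 20.6 to 25.6 CPM in aged and 18.5 to 27.9 CPM in young libraries; Kdr and Cldn5 were the 2 of 10 with a peak, and Pecam1, Cdh5, Tie1 and Vwf had none. Over 50 kb 8 of the 10 had a peak (all but Tie1 and Emcn), 6 of them above 0 and 2 below, Cdh5 at -0.36 (SE 0.20) and Kdr at -0.28 (SE 0.37), with none called and a sum of 340 to 353 CPM in aged and 316 to 348 CPM in young libraries. The part of endothelial cells in the Igfbp7 difference was not tested. The 2 neighbouring peaks that could be tested had a median of -0.21 and were not called.

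Igfbp4, a soluble inhibitor of growth factor action that the protease PAPP-A cleaves, was open in both ages without a call. Its promoter read 35.8, 33.5 and 33.1 CPM in aged 1, 2 and 4 and 31.8, 36.1 and 30.9 CPM in young 1, 2 and 4, a log2 difference of 0.04 (SE 0.13, edgeR adjusted p = 0.974). The broad peak at -769 bp, chr11:99041043-99041791, carried most of it (-0.02, SE 0.14), and the one nearest the annotated start, at 150 bp, differed by 0.41 (SE 0.35). The smallest unadjusted p, 0.0629, was at -1674 bp (0.72, SE 0.37), where aged 1 read 2.28 CPM and the other 5 libraries 0.319 to 1.25 CPM.

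None of the 10 tested peaks of Igfbp2, Igfbp3 and Igfbp5 was called. Igfbp2, a binding protein that is abundant in blood, has a RefSeq start at chr1:72824480, 24219 bp from the start used by the deposited distances. Weak peaks flank that start, chr1:72823906-72824062 at 0.434 CPM, too low to test, and chr1:72824521-72824945 at 2.04 CPM on average, and neither covers it. Summed near RefSeq starts, its promoter read 4.97, 5.67 and 4.39 CPM in aged 1, 2 and 4 and 5.03, 5.97 and 7.32 CPM in young 1, 2 and 4 (-0.21, SE 0.26, edgeR adjusted p = 0.909). Its strongest peak was intronic, at -5650 bp, with 4.75, 5.31 and 5.96 CPM in aged and 3.89, 4.36 and 5.41 CPM in young libraries (0.28, SE 0.19). The peak at -4730 bp had the smallest unadjusted p, 0.114 (0.65, SE 0.40). In all these the ages overlapped.

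Igfbp3, the main carrier of insulin-like growth factors in blood, had only 2 small peaks, and its start peak at 317 bp, with 0.159 to 0.495 CPM, was too low to test. The intronic peak at 3397 bp read 1.05, 1.04 and 0.681 CPM in aged and 0.961, 0.446 and 0.796 CPM in young libraries 1, 2 and 4 (0.36, SE 0.39). Igfbp5, which binds extracellular matrix as well as ligand, had no peak within 1000 bp of its start by either annotation. Its 2 main peaks were intronic: the one at 3866 bp read 7.15, 7.15 and 9.31 CPM in aged and 7.64, 6.83 and 6.21 CPM in young libraries (0.16, SE 0.16). At 3047 bp the levels were 2.96, 3.76 and 3.98 CPM in aged and 4.30, 3.62 and 7.17 CPM in young libraries, with young 4 highest (-0.37, SE 0.22, unadjusted p = 0.0988). Over 50 kb the differences were 0.10 (SE 0.16) for Igfbp2, 0.15 (SE 0.33) for Igfbp3, 0.03 (SE 0.11) for Igfbp4 and -0.07 (SE 0.15) for Igfbp5.

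Gdf15 had the most peaks of the 9 genes, 10, and a call at just 1 of them, far from its promoter. The peak chr8:70645886-70646079, at -13526 bp and annotated at the TTS of Pgpep1 (pyroglutamyl-peptidase I), read 2.53, 3.38 and 3.29 CPM in aged 1, 2 and 4 and 1.56, 0.891 and 1.11 CPM in young 1, 2 and 4. All aged libraries were above all young ones. The log2 fold change was 1.34 (SE 0.27, edgeR adjusted p = 0.00310), a 2.54-fold difference, from raw counts of 41, 81 and 58 in aged and 34, 18 and 7 in young libraries. Leaving out young 2 ended the call, at 1.11 (edgeR adjusted p = 0.0922). The next tested peak towards the gene, at -9572 bp, was at 0.86 (SE 0.37) and was not called (edgeR adjusted p = 0.433).

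At the Gdf15 promoter the levels were 38.0, 38.6 and 40.5 CPM in aged 1, 2 and 4 and 36.0, 36.8 and 34.0 CPM in young 1, 2 and 4. The ages did not overlap, as at 14% of all tested promoters, but the difference was small, 0.12 (SE 0.12, edgeR adjusted p = 0.884). Its peak nearest the start, at 768 bp in exon 1, was at 0.10 (SE 0.13). The strongest, at 2528 bp in exon 2, read 30.3, 26.4 and 21.0 CPM in aged and 35.1, 25.6 and 26.3 CPM in young libraries (-0.18, SE 0.14). Of the 9 tested Gdf15 peaks 6 were above 0 and 3 below, and over 50 kb the gene was at 0.04 (SE 0.08). Of 24 tested peaks near Gdf15 named for other genes, 14 were above 0 and 1 was called, lower: chr8:70598420-70598607, named for Isyna1 (inositol-3-phosphate synthase) and singled out after its values were seen, at 0.872 ± 0.332 CPM in aged and 8.0 ± 2.61 in young libraries (SD, n = 3 each; log2 fold change -3.14, SE 0.27, edgeR adjusted p = 1.72e-09).

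**Figure D3:**
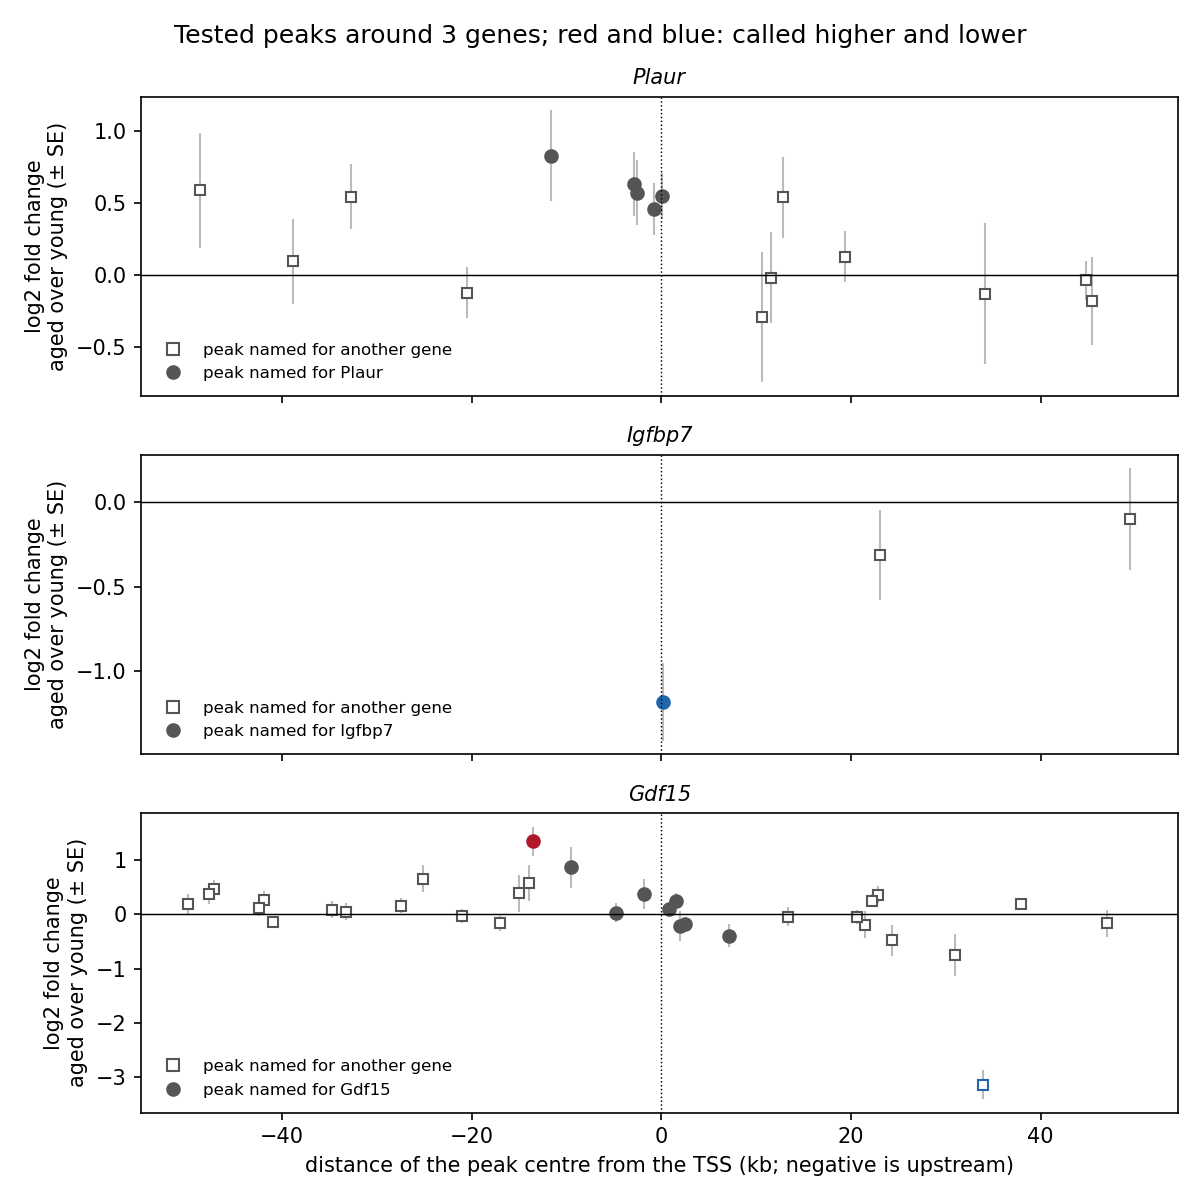
Log2 fold change (aged over young, with SE) against distance from the TSS in kb for tested peaks around Plaur, Igfbp7 and Gdf15; filled circles are peaks named for that gene, open squares peaks named for other genes, and red and blue are called higher and lower. The Plaur peaks lie at 0.46 to 0.83. The 11 neighbours lie at -0.29 to 0.59, on both sides of 0, and some fall within the Plaur range. At Gdf15 the peak called higher lies apart from the promoter peaks.

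Compared per kb of peak over 50 kb, so that genes with more or wider peaks do not rank higher for that alone, Gdf15 was the most open, at 25.7 to 29.8 CPM per kb in the 6 libraries. Igfbp5 (13.4 to 19.0), Igfbp4 (12.7 to 16.1), Plaur (11.1 to 21.3) and Plau (11.5 to 14.3 CPM per kb) followed with overlapping ranges. Serpine2 was lower, at 6.94 to 9.84, and Igfbp3 (4.68 to 6.81) and Igfbp2 (4.68 to 6.60 CPM per kb) could not be ordered. Igfbp7 moved within this order: its young libraries, at 7.34 to 8.42 CPM per kb, lay within the Serpine2 range, and its aged libraries, at 2.97 to 4.28, lay below every library of the other 8 genes.

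**Figure D4:**
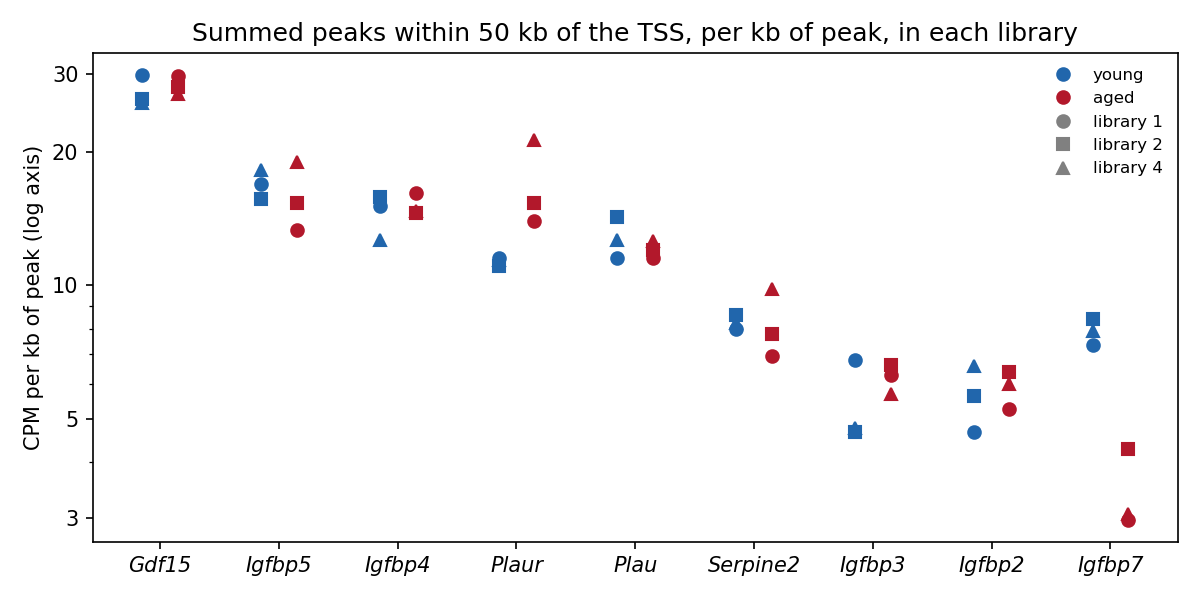
Summed accessibility of peaks within 50 kb of each TSS, in CPM per kb of peak on a log axis, for young (blue) and aged (red) libraries 1, 2 and 4. Gdf15 is highest at 25.7 to 29.8, Plaur is spread upward by its aged libraries, and aged Igfbp7 is lowest at 2.97 to 4.28.

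Of 78 other genes listed for these pathways, 36 could be tested at promoters, and none was called by edgeR or by DESeq2, with 1 at an unadjusted p below 0.05 (background 1.74% called and 8.93% at that unadjusted p). Their median log2 fold change was 0.03. The gene past the unadjusted threshold was Igf2r, the receptor that clears Igf2 from the cell surface: 8.37, 8.38 and 8.06 CPM in aged 1, 2 and 4 and 5.11, 5.97 and 3.04 CPM in young 1, 2 and 4 (0.70, SE 0.26, edgeR adjusted p = 0.319). Its aged libraries lay above all young ones, and at 14% of all tested promoters the ages likewise did not overlap. The Igf2r promoter was weak, where the median over all tested promoters was 51.6 CPM. Over 50 kb Igf2r had 7 peaks, was at 0.05 (SE 0.13, edgeR adjusted p = 0.978) and overlapped between the ages.

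Among plasminogen activators, 3 of 5 were tested, led by Plat, tissue plasminogen activator (0.15, SE 0.10), and Plgrkt, a plasminogen receptor (-0.01, SE 0.07). Of 8 inhibitors 2 were tested, among them Serpinf2, the plasmin inhibitor (-0.08, SE 0.28). Receptor partners and plasminogen-binding proteins had 3 of 11 tested, among them Eno1 (-0.23, SE 0.24) and Lypd3 (0.22, SE 0.30). None of these was called.

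Of 7 growth factor ligands, receptors and substrates 5 were tested, with Irs1, an adaptor of the insulin and growth factor receptors, at -0.23 (SE 0.12). Of 9 other binding proteins and their partners 2 were tested, Igfals (0.15, SE 0.16) and Igfbpl1 (-0.21, SE 0.31). The Gdf15 group had 2 of 4 tested, the co-receptor Ret (0.11, SE 0.11) and the stress regulator Atf4 (-0.03, SE 0.05). Of 34 other senescence secretory genes 19 were tested, from -0.43 to 0.50 on the log2 scale, with Il6 (-0.43, SE 0.27) and the death receptor Fas (0.12, SE 0.08) having the smallest p.

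Over 50 kb 54 of the 78 pathway genes were tested and 1 was called, Klkb1, which encodes plasma prekallikrein, a protease precursor that can activate plasminogen. It read 13.7, 17.8 and 15.3 CPM in aged 1, 2 and 4 and 9.66, 10.7 and 11.4 CPM in young 1, 2 and 4, without overlap (0.58, SE 0.15, edgeR adjusted p = 0.0340). That is close to the 1.84% of all genes called at this level, and the ages did not overlap in 13.7% of all genes. Klkb1 has no peak within 1000 bp of its start. Its value therefore comes only from 5 peaks farther out that are named for it by position. The Klkb1 call was not tested under the alternative settings.

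By the root mean square difference of mean-centred log2(CPM + 1) over the 6 libraries, the promoters most like Plaur were those of Gtf2a1l (0.0671), Maml3 (0.0685) and Gm17546 (0.0814). None of them was called: their log2 fold changes were 0.53 (SE 0.27), 0.61 (SE 0.32) and 0.86 (SE 0.47). Their levels were low, with means of 7.88, 4.96 and 2.00 CPM in aged and 5.42, 3.19 and 1.07 CPM in young libraries. Adding 1 to the CPM shrinks log2 differences at such levels. Those most like Igfbp7 were Sim1 (0.0429), Cacng2 (0.0638) and Gm29054 (0.0985), all lower in aged libraries, at -1.21 (SE 0.31, edgeR adjusted p = 0.0416), -1.06 (SE 0.14, edgeR adjusted p = 2.44e-05) and -1.16 (SE 0.27, edgeR adjusted p = 0.0171). Cacng2 had a well covered promoter, at 21.3 ± 3.32 CPM in aged and 45.6 ± 4.27 in young libraries (SD, n = 3 each). The likeness is a description over 6 libraries that share the age contrast. Promoters picked for a profile like that of a called gene share its direction by that choice, so their values are no separate support.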

How the data were processed

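ATAC-seq of 6 libraries was analysed from the deposited raw counts per consensus peak, which the authors had not normalised, and from the deposited peak annotation (position, class, nearest gene, distance to TSS; GRCm38, counted from 1). The submitters' processing notes name Trim Galore 0.6.4, BWA 0.7.17-r1188, MACS2 2.2.7.1 and featureCounts 2.0.1, among others. Peak-calling settings, any Tn5 offset and whether reads or fragments were counted are not given in the labels or notes used here; the last would scale the counts and their sampling error.

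Counts were filtered with filterByExpr, scaled by TMM and tested in edgeR 4.0.16 (R 4.3.3) by the quasi-likelihood test with robust dispersions, age as the only term and a call at a Benjamini-Hochberg adjusted p below 0.05 over all features. The SE is the log2 fold change divided by the square root of F. Promoters are sums over peaks within 1000 bp of the TSS, 50 kb sums over those within 50000 bp. CPM were computed from the deposited counts with TMM-scaled totals of the level in question. The code was tested on simulated data. Depth ran from 6149680 to 23935291 counts, so young 4 is the least precise library. Every 2 libraries differed by more than independent counts would (lowest chi-square per peak 1.67). If both reads of a fragment were counted, sampling noise alone would be larger, so an excess over noise is not shown for every pair.

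The genes, the pathway and marker lists (78 and 56 genes) and the tests were chosen with earlier results of these data known. Named peaks of each gene are the called ones, the nearest to the start, the strongest and the one with the smallest p; of each pathway list the called promoters or else up to 2 with the smallest p; and the 3 promoters most like each called one. Deviations from the age mean correlated at 0.287, 0.209 and 0.167 between libraries numbered 1, 2 and 4, and from -0.209 to 0.0279 between other pairs of young and aged libraries. All 3 exceeded the criterion of 0.1, although the labels do not say what the numbers mark. Deviations sum to 0 within an age, so these correlations are not independent of each other. The main tests had age as the only term, and the numbers entered as a block only in an alternative. Alternatives were other scalings and filters, DESeq2 1.42.0, a replicate block, other windows and leaving out each library. Promoter sequences come from a RefSeq table (GRCm38.p6) that held 8 of the 9 genes. Sequences of distal peaks were not used here. A gene of the pathway lists is not reported here by name.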

Additional observations from a re-analysis of the deposited data

How the results depend on the processing

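Of the 9 genes, 2 were called at promoters and 2 over 50 kb, and 2 of their peaks were called, under RLE scaling, total counts, DESeq2 and no filter on low counts. Limiting peaks to 10000 bp left 1 called peak, since the Gdf15 peak lies farther out. The stricter filter and the 500 bp promoter window each left 1 called promoter, that of Igfbp7. Without peaks within 1000 bp of the TSS, an alternative added after the data had been seen, 0 of the genes were called over 50 kb (8 could be tested, and Plaur was at 0.63). Leaving out each library gave 1 to 3 called peaks, 0 to 2 called promoters and 0 to 2 genes called over 50 kb; no pathway promoter was called by edgeR in these, or by DESeq2 on all 6 libraries. The sign of the Plaur, Igfbp7 and distal Gdf15 values did not change in any alternative. With RefSeq starts in place of the deposited distances, also added later, Plaur and Igfbp7 stayed at 0.54 and -1.16, where 1.6% of 14559 promoters were called.

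With the replicate block, 3 peaks of the 9 genes were called, the added one being the Plaur start peak, with 2 promoters and 2 genes over 50 kb as before. Paired in this way the Plaur promoter was at 0.47 (edgeR adjusted p = 0.00368), and calls over all peaks rose to 2578 higher and 1420 lower, from 1393 and 684. The block changed no other call of these genes. Depth limits the weak peaks most: the distal Gdf15 peak rests on 7 counts in young 4. The Igfbp7 peak rests on 25 counts in young 4 and 25 in aged 1.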
